A study of Mus musculus with 10 samples.

Results

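Mouse chromosome 7 contributed 21673 of the 352636 ATAC-seq peaks compared here, and it was chosen by the number of its peaks gained in both sexes after deletion of Smchd1, which was the highest of all chromosomes. Its members are all chromosome 7 peaks in 4 lists, each reduced to its 88159 peaks of highest −log10 q on chromosomes 1 to 19, X and Y. There were 5567 such peaks in deleted females, 5209 in control females, 5669 in deleted males and 5228 in control males. Because the numbers of peaks and their changes on this chromosome selected it, they are given as a description, without a test.

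The study measured open chromatin by ATAC-seq, in which the transposase Tn5 places sequencing adapters into accessible DNA, in neural stem cell lines of strain C57BL/6. The lines were derived from E14.5 embryos homozygous for a floxed Smchd1 allele. The deleted lines are labelled Smchd1 del/del (3 female and 2 male libraries) and the controls Smchd1 fl/fl (3 female and 2 male libraries). The protocol for retroviral Cre with a puromycin marker, puromycin from 24 h and harvest on day 7 stands with every library, and no source used here says whether the controls also received a vector. All groups carried the floxed allele on the same background, and the deletion acted in cells selected in culture for a few days, not in an animal. The description field of the male libraries reads female, whereas their titles and sex fields read male.

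Smchd1 is a chromatin protein related to the structural maintenance of chromosomes family, and it takes part in silencing of the inactive X chromosome, of some imprinted genes and of some clustered gene families. Imprinted genes are expressed from the copy inherited from 1 parent. Mouse chromosome 7 carries several imprinted domains, among them the Snrpn cluster (the region of Prader-Willi and Angelman syndromes), the Peg3 cluster and the neighbouring H19 to Igf2 and Kcnq1 domains, and it also carries large families of olfactory, vomeronasal and zinc finger genes. A peak marks DNA that Tn5 could enter more often than its surroundings, typically a promoter, an enhancer or a binding site of an insulator protein.

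Few gained peaks lay at an annotated gene start, and those of Snrpn are shown first. The gene encodes a protein of the spliceosome and is read from the minus strand of chromosome 7 between 59982495 and 60450177 (mm10), together with the long noncoding RNA Snhg14, which runs on across the cluster. RefSeq places 4 start windows on it, each 250 bases before and 50 bases after an annotated first base, printed here 5′ to 3′ from the RefSeq assembly GRCm38.p6, whose chromosomes are those of mm10. Capitals mark bases within 50 bp of the summit of the peak in the deleted female list. They are shown because starts 1 to 3 are related in sequence and the 4 windows differ in their peaks.
Snrpn start 1, chr7:60450128-60450427: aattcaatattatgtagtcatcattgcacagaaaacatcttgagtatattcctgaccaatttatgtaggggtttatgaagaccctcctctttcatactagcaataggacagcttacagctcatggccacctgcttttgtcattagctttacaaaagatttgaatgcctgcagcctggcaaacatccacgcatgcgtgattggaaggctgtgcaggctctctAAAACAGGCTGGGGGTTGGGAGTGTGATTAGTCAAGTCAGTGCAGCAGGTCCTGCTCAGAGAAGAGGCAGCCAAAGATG
Snrpn start 2, chr7:60140176-60140475: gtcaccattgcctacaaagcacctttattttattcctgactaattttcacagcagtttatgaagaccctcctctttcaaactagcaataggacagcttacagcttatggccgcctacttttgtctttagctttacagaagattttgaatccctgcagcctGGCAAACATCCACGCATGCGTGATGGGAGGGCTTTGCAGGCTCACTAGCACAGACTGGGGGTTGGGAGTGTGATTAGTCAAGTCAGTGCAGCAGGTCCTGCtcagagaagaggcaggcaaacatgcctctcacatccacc
Snrpn start 3, chr7:60047929-60048228: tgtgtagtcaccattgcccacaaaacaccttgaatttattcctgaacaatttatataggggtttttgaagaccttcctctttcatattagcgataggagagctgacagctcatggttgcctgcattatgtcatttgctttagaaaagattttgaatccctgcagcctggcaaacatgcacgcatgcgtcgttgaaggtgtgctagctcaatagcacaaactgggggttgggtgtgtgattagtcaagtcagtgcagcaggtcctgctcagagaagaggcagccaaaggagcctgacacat
Snrpn start 4, chr7:60005150-60005449: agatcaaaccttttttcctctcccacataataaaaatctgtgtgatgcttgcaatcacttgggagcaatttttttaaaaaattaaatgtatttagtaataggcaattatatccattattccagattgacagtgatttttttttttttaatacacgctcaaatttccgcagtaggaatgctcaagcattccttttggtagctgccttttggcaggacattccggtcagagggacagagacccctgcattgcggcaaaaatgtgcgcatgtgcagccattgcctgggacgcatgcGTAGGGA

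Start 1, the farthest upstream, is shared with Snhg14 and carried a peak in both deleted lists and in neither control list. Its rank, where 1 is the strongest of 88159, was 16739 in deleted females and 18327 in deleted males. Start 2 held a peak of rank 30311 in deleted females and 45279 in deleted males, and again none in control females or control males. Start 3 held no peak in any list. Start 4, the most downstream, was open in all lists, with ranks of 25728 in deleted females, 20033 in control females, 24617 in deleted males and 15712 in control males. Its summit lay 93 bp past the annotated first base, so that only 7 bases of the printed window are capitals. Over the bases that could be aligned, start 1 was identical to start 2 at 252 of 284 positions and to start 3 at 252 of 288, and start 2 to start 3 at 249 of 293. These identities were 88.7%, 87.5% and 85.0%. Start 4 could be aligned to the others over 178 to 191 bases only, at 71.9% to 77.5% identity. Similar copies can share sequencing reads, and how the reads were assigned between them was not measured here.

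A second example is an internal start of Trim30a, a member of the tripartite motif family that in mouse dampens inflammatory signalling. Its window, on the minus strand, overlapped a peak of rank 37205 in deleted females and 55525 in deleted males, and no peak in either control list. Capitals again mark bases within 50 bp of the deleted female summit, which lay 25 bp before the annotated first base.
Trim30a start, chr7:104446076-104446375: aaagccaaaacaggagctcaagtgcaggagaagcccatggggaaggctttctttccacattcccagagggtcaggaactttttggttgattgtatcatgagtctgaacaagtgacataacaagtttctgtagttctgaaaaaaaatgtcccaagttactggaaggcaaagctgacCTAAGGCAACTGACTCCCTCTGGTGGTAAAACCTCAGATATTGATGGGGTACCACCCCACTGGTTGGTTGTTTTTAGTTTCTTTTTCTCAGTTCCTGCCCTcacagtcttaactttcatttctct

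RefSeq gave 2790 start windows for 2316 chromosome 7 genes, and 1114 of the windows overlapped a peak in all 4 lists. The windows open everywhere were rich in G and C, with a median of 61.0% and 20 CpG sites in 300 bases. Gained peaks of either sex overlapped 9 windows of 7 genes, at a median of 48.0% G and C and 6 CpG sites, and 0 windows overlapped a lost peak. Some of the 9 are not separate places, since Snhg14 and Snrpn share a window and the windows of Gm33190 and Ano5 share a peak. Such repeats weigh on the medians, and no share over all chromosomes stands beside the count. All 2790 windows together had a median of 52.3% G and C and 6 CpG sites.

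The 4 lists rest on pooled libraries, 1 list per group, so no value has a replicate error. They were made from 139318421 tags in deleted females, 144613215 in control females, 74674218 in deleted males and 91734730 in control males. Intervals below are 95% exact binomial intervals that cover counting error only and treat lists that share most peaks as independent. Of 10 neural stem cell genes on any chromosome, named after the data were seen, 9 had a peak at a gene end in all lists and Pax6 had one in none. Of the immune genes Ptprc, Cd3e and Spi1, the first pair had such a peak in no list and Spi1 in all.

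Chromosome 7 held more of the equal-length list in deleted cells than in controls, in both sexes. Its 5567 peaks in deleted females against 5209 in control females gave a log2 ratio of 0.10 (0.04 to 0.15). Its 5669 peaks in deleted males against 5228 in control males gave 0.12 (0.06 to 0.17). The ratio was the highest of the 19 autosomes in both sexes, with the other 18 between −0.05 and 0.06 in females and between −0.09 and 0.07 in males. The lists as deposited have unequal lengths and turn this ratio round, with 6708 peaks in deleted females against 7646 in control females (log2 −0.19) and 5669 in deleted males against 5993 in control males (log2 −0.08). Set against the other autosomes, the log2 ratio stayed above 0 in both forms, at 0.11 and 0.14 in females and 0.12 and 0.13 in males for the equal-length and the deposited lists.

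More peaks did not mean more DNA in peaks. The chromosome 7 peaks covered 2391.51 kb in deleted females against 2590.05 kb in control females, and 2207.06 kb in deleted males against 2272.38 kb in control males. Their median length was 325 bp in deleted females, 397 bp in control females, 288 bp in deleted males and 332 bp in control males. The −log10 q of the weakest peak kept was 4.27 in deleted females, 6.59 in control females, 1.39 in deleted males and 4.52 in control males. The deleted lists therefore reached to weaker evidence, and peak length, depth and evidence moved with genotype. Their part in the peak numbers was not tested.

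The extra peaks were not spread evenly over strength. Among ranks 66120 to 88159, chromosome 7 had 1466 peaks in deleted females against 1219 in control females, an excess of 247, and 1410 in deleted males against 1250 in control males, an excess of 160. Among the 22039 strongest there were 1419 in deleted females against 1360 in control females, and 1473 in deleted males against 1386 in control males. Ranks 44080 to 66119 held 1356 in deleted females against 1328 in control females and 1434 in deleted males against 1286 in control males. In females the surplus thus sat mainly at the weak end, and in males in both weaker bands.

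When overlapping chromosome 7 peaks were merged over all lists, 3955 of 6930 regions (57.1%) were open in all 4, against 55.7% on the other autosomes. Regions open in both deleted lists and in neither control list numbered 279 (4.03%), against 2.52% on the other autosomes. Regions open in both control lists and in neither deleted list numbered 162 (2.34%), against 3.76% on the other autosomes. The ratio of these counts, deleted over control, was 1.72 on chromosome 7, and the next autosome was chromosome 5 at 1.09.

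A gained peak is one that ranked among the 44079 strongest of a deleted list and shared no base with any peak of the equal-length control list of the same sex, and a lost peak is the reverse. Deleted females gained 66 of 2745 candidate peaks on chromosome 7 (2.40%), where 1.14% of candidates were gained over all chromosomes. They lost 8 of 2662 (0.301%), where 0.44% were lost over all chromosomes. Deleted males gained 46 of 2825 (1.63%), where 0.824% were gained over all chromosomes, and lost 22 of 2692 (0.817%), where 1.08% were lost over all chromosomes. Chromosome 14 was close behind in the share gained, at 2.33% (1.69% to 3.13%) in females and 1.54% (1.02% to 2.22%) in males. The chromosome 7 shares were part of the choice of the chromosome, and nothing is read from them.

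**Figure D1:**
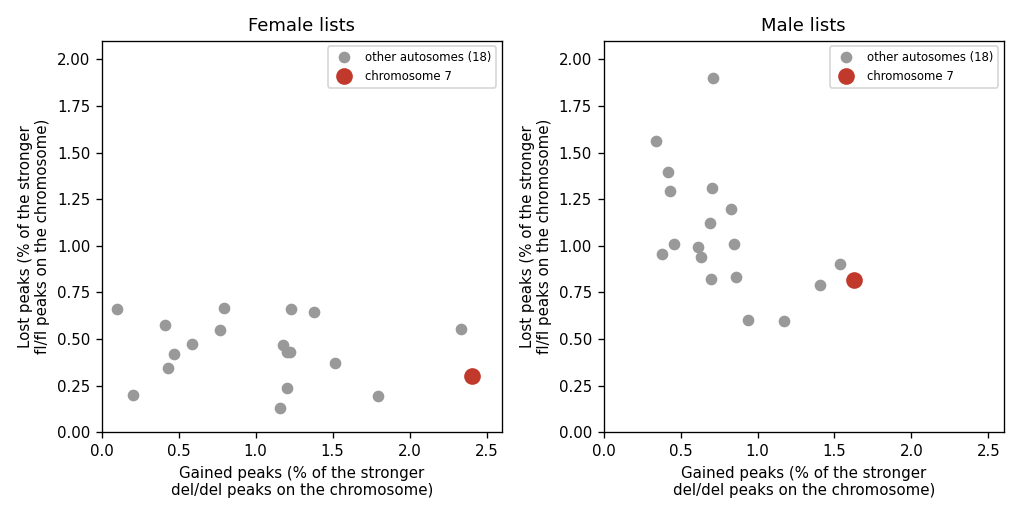
Share of peaks gained (horizontal axis, % of the deleted list's peaks on a chromosome that rank among the 44079 strongest) against share lost (vertical axis, % of the control list's), 1 point per autosome, for the female lists (left) and male lists (right). Chromosome 7 lies farthest to the right in both panels, at 2.40% gained in females and 1.63% in males, with 0.301% and 0.817% lost. Chromosome 14 lies close to it on the horizontal axis, at 2.33% gained in females and 1.54% in males.

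Both sexes gained the same peak at 27 places on chromosome 7, of 133 over all chromosomes (0.302% of candidates), and lost the same peak at 1 place, of 13 over all chromosomes (0.0295%). The 27 make up 40.9% of the peaks gained by deleted females and 58.7% of those gained by deleted males. Chromosome 5 followed with 20. Of the 39 peaks gained in females alone, 35 overlapped some peak of the full deleted male list, and of the 19 gained in males alone, 18 overlapped some peak of the full deleted female list. Many of these places also had a control peak in the other sex. Only 18 of the 39 had a peak in the full deleted male list and none in the full control male list. The same held in the female lists for 3 of the 19. No share over all chromosomes stands beside these overlaps, and nothing is read from them. The deposited control lists, uncut, held a weaker counterpart of 5 of the 27 in control females and of 0 in control males.

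Fold enrichment of the 27 peaks over their local background, the authors' own value, ranged between 4.08 and 9.28 in deleted females with a median of 5.09, and between 4.35 and 11.7 in deleted males with a median of 5.29. Of the 27, 15 lay outside genes with a gene end within 50 kb, 8 inside a gene, 2 within 1 kb of a gene end and 2 with no gene within 50 kb. They stood at a median of 66.7 kb from a protein-coding gene end. They fell into 15 of the 30 blocks of 5 Mb, and 8 neighbouring pairs were within 200 kb of each other.

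**Figure D2:**
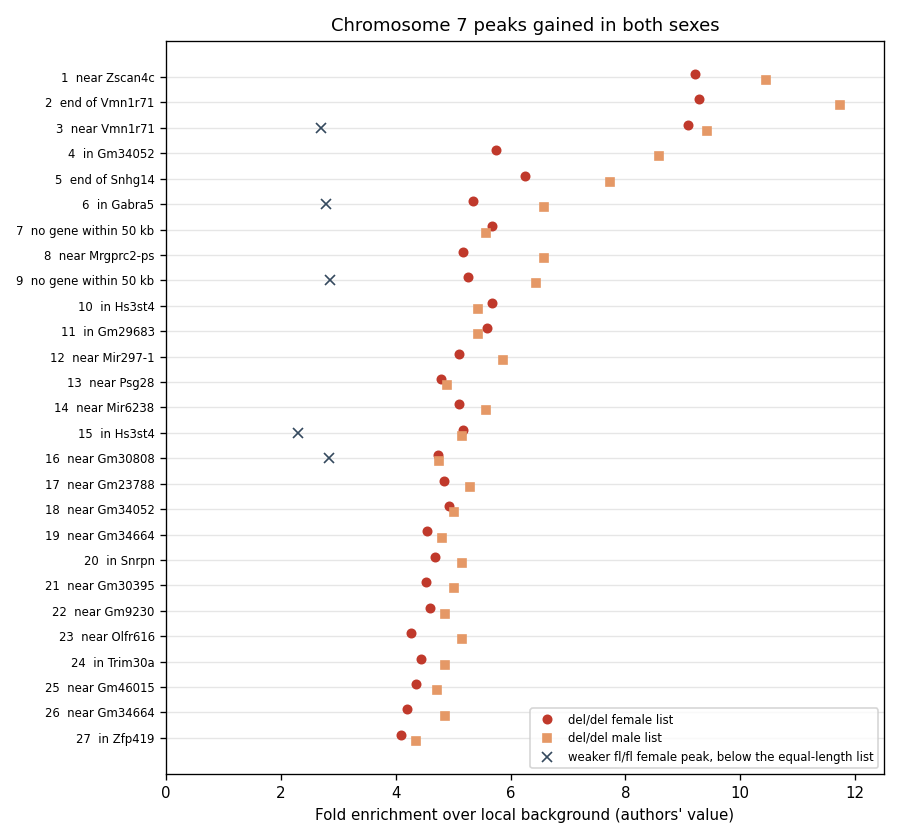
The 27 chromosome 7 peaks gained in both sexes, ordered by mean rank, with fold enrichment over the local background on the horizontal axis in the deleted female list (circles) and the deleted male list (squares). Crosses mark 5 weaker peaks of the uncut control female list, at most 2.86. The 3 peaks in or near Vmn1r71 and Zscan4c stand apart on the right, at 9.08 or more.

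The 3 strongest lay within 0.3 Mb of each other, in a stretch from the vomeronasal receptor gene Vmn1r71 to just past Zscan4c. Zscan4c belongs to a family of zinc finger genes known from the mouse 2-cell embryo and from a rare state of embryonic stem cells, and Vmn1r71 encodes a pheromone receptor of sensory neurons. The peak at 11034377 to 11035172 in deleted females, 24.25 kb from Zscan4c, ranked 3124 in deleted females and 4581 in deleted males, with fold enrichments of 9.21 and 10.4. A peak within Vmn1r71 at 10747813 to 10748320 ranked 3876 in deleted females and 5413 in deleted males, with fold enrichments of 9.28 and 11.7. It was not at the start of the gene, since its summit lay 1480 bp past the annotated first base in females and 1470 bp in males, close to the 3′ end of a gene of 2037 bp. The third, 20.2 kb from Vmn1r71 at 10769540 to 10770162, ranked 2376 in deleted females and 7245 in deleted males, and had a counterpart in the uncut control female list at rank 101829. The start windows of Vmn1r71 and Zscan4c themselves held no peak in any list.

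Over the 600 kb around these genes (10600000 to 11200000), deleted females had 9 peaks against 3 in control females, and deleted males had 10 against 1 in control males. The best ranks there were 2376 in deleted females, 67247 in control females, 4581 in deleted males and 53297 in control males. The interval also held the gained peak 3.53 kb from Mir297-1, a microRNA gene. A peak near Zscan4d at 11158049 was absent from both control lists and ranked 21715 in deleted females and 45140 in deleted males, just too weak in males to be called. These families have many similar copies, and reads shared between copies were not measured.

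The fourth, at 39867537 to 39867856 inside the long noncoding RNA gene Gm34052, ranked 20326 in deleted females and 14442 in deleted males, with fold enrichments of 5.75 and 8.58. Further gained peaks lay 24.1 kb from Gm34052 and 23.3 kb from the pseudogene Gm9230. The 400 kb around them held 12 peaks in deleted females against 2 in control females, and 10 in deleted males against 3 in control males. From the first of these peaks it was 287 kb to a protein-coding gene.

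The fifth was the peak at the joint start of Snhg14 and Snrpn described above. Deleted females had it at 6.24 and deleted males at 7.73 times the local background. A second Snrpn peak gained in both sexes, at 60123147 to 60123348, ranked 31528 in deleted females and 38034 in deleted males. The Snrpn peak at 60170873 ranked 19076 in deleted females and 19108 in deleted males, and missed the call in males because control males had a weak peak there at rank 77188. Over 500 kb upstream in the gene (60000000 to 60500000), deleted females had 17 peaks against 8 in control females, and deleted males had 17 against 9 in control males.

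Gabra5, a subunit of the GABA-A receptor for the inhibitory transmitter GABA, gained a peak inside the gene at 57474222 to 57474467, ranked 24040 in deleted females (fold enrichment 5.34) and 25160 in deleted males (6.58). Hs3st4, which encodes a sulfotransferase that modifies heparan sulfate, gained 2 internal peaks. The stronger of them, at 124172073, ranked 20966 in deleted females and 34545 in deleted males. Around Hs3st4 (123900000 to 124400000) there were 10 peaks in deleted females against 3 in control females, and 12 in deleted males against 4 in control males. The other 5 of the 12 strongest were 2 peaks without a gene within 50 kb, at 137841500 and 125024892, a peak 5.96 kb from the pseudogene Mrgprc2-ps, a peak inside the noncoding Gm29683 and the peak near Mir297-1. Their ranks ran between 17980 and 26590 in deleted females and between 25106 and 34529 in deleted males.

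The remaining 15 were weaker. They lay near or in Psg28, a pregnancy-specific glycoprotein gene, Mir6238, Hs3st4, Gm30808, Gm23788, Gm34052, Gm34664 (2 peaks), Snrpn, Gm30395, Gm9230, the olfactory receptor gene Olfr616, Trim30a, Gm46015 and Zfp419. The Psg28 peak at 18403813 ranked 26147 in deleted females and 32381 in deleted males. Beside it, a stronger peak at 18402559 was called in females alone, at ranks 8898 in deleted females and 14900 in deleted males, because the control male list held a peak there at rank 86622. In the reverse case, a peak at the end of the pseudogene Gm4880 was called in males alone, at ranks 16238 in deleted females and 13921 in deleted males against rank 85417 in control females. The 200 kb that hold both genes contained 8 peaks in deleted females against 1 in control females, and 7 in deleted males against 1 in control males.

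The margin of the call was narrow for the weakest members. The last 3 inside it, judged by the worse rank over both sexes, were near Gm9230 (41614), near Gm46015 (43497) and in Zfp419 (44042). The first 3 outside were near Gp2 (44480), near Zscan4d (45140) and in Snrpn at 60140135 (45279). Counted at any rank, 287 peaks of the deleted female list overlapped a deleted male peak and no peak of either control list, so 260 of these lay outside the call.

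At equal list length fewer peaks were lost than gained. That order depends on the length of the lists, since in the lists as deposited 69 were gained and 127 lost in females, and 39 gained and 46 lost in males. Ranked by pileup, 53 were gained and 56 lost in males. The 8 lost in females began at rank 40296 of the control female list, and their fold enrichment was at most 4.67. They lay in or near 6330420H09Rik, Oat, Inpp5a, Capns1, Zfp536, Mrpl17, Usp29 and Gm5334. The 22 lost in males began at rank 35315 of the control male list, with a fold enrichment of at most 5.62. The 8 strongest lay in or near Gm39116, Mogat2, Gas2, 4932431P20Rik, AI314278, 6330420H09Rik, Gm32164 and Agbl1. Of the peaks lost, 0 of 8 and 0 of 22 were among the 22039 strongest of their list, whereas 11 of 66 and 6 of 46 gained peaks were. These counts have no share over all chromosomes beside them, and nothing is read from them. The deleted lists reached down to a −log10 q of 4.27 in females and 1.39 in males, the control lists to 6.59 and 4.52. A lost peak therefore had to be absent down to weaker evidence than a gained peak. The 1 peak lost in both sexes lay 7.86 kb from the noncoding gene 6330420H09Rik at 135846080 to 135846349, at rank 40296 in control females and 39254 in control males.

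At equal length ranked by −log10 q, lists of the same genotype differed by smaller shares of candidates than deleted lists gained over controls. Between control females and control males, 1 chromosome 7 peak passed the same call in females only and 2 in males only, where 0.117% and 0.0932% of autosomal candidates did. Between deleted females and deleted males, 13 passed in females only and 9 in males only, where 0.768% and 0.461% of autosomal candidates did. Those 13 and 9 were 0.474% and 0.319% of the chromosome 7 candidates. Both shares were above the 0.301% lost by deleted females against control females, and below the 0.817% lost by deleted males against control males. Ranked by pileup, 106 chromosome 7 peaks passed in 1 sex only between the deleted lists, both directions together. The gained peaks then numbered 66 in females and 53 in males. A peak gained in both sexes is in both deleted lists and cannot pass here, and chromosome 7 was chosen on such peaks. Peak numbers on chromosome 7 differed by log2 −0.03 (−0.08 to 0.03) between deleted females and deleted males, and by −0.01 (−0.06 to 0.05) between control females and control males.

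Gained peaks were placed by their distance to genes. Of the 66 gained in females, 10 were within 1 kb of a gene end, 20 inside a gene, 31 outside with an end within 50 kb and 5 farther from any gene. Of the 46 gained in males these numbers were 9, 14, 18 and 5. The share farther than 50 kb from any gene was 7.58% (2.51% to 16.8%) in females, against 19.3% (15.6% to 23.4%) of 410 peaks gained on the other autosomes. In males it was 10.9% (3.62% to 23.6%), against 12.4% (8.94% to 16.6%) of 306. The intervals overlap in both sexes. The median distance of a gained peak to a protein-coding end was 31.6 kb in females and 46.7 kb in males on chromosome 7, against 108 kb and 61.3 kb on the other autosomes. Peaks kept on the other autosomes were not placed, so no contrast with those autosomes is read as a trait of gained peaks. For kept chromosome 7 peaks, the 10 nearest in rank to each gained peak, the median distance was 17.3 kb and 16.6 kb. Of these kept peaks, 26.3% in females and 23.3% in males lay outside with an end within 50 kb, against 47.0% and 39.1% of gained peaks. The shares within 1 kb of a gene end were 22.4% kept against 15.2% gained in females, and 19.5% against 19.6% in males.

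The excess of peaks over the whole chromosome was proportionally larger away from protein-coding genes. Within protein-coding genes and 5 kb on each side there were 3891 peaks in deleted females against 3749 in control females (log2 0.05, −0.01 to 0.12), and 3983 in deleted males against 3739 in control males (log2 0.09, 0.03 to 0.16). Outside them there were 1676 in deleted females against 1460 in control females (log2 0.20, 0.10 to 0.30), and 1686 in deleted males against 1489 in control males (log2 0.18, 0.08 to 0.28). The intervals inside and outside overlap in both sexes. In numbers the excess was 142 inside and 216 outside in females, and 244 inside and 197 outside in males. The other autosomes were not counted in this way, so the order is not read as a trait of chromosome 7. Gene starts changed little in number, with 1188 open windows in deleted females, 1199 in control females, 1169 in deleted males and 1149 in control males.

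Peaks present in both lists of a sex were compared by rank percentile, where 100 is the strongest of a list. On chromosome 7, 86.8% of control female peaks and 85.4% of control male peaks had a counterpart in the deleted list. The median shift, deleted minus control, was 0.03 points in females and 1.08 points in males. On the other autosomes it lay between −1.20 and 0.03 in females and between −0.60 and 0.69 in males. Of the matched peaks on chromosome 7, 50.2% ranked higher in deleted females than in control females and 56.7% ranked higher in deleted males than in control males. Peaks seen in both lists therefore showed next to no common shift in females.

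Along the chromosome, at equal list length, the excess was spread over many blocks. Of 30 blocks of 5 Mb, deleted females exceeded control females in 22, fell short in 7 and tied in 1, where 43.3% of all autosomal blocks were in excess. In males 26 were in excess and 4 short, where 49.2% of all autosomal blocks were in excess. The direction was upward in both sexes in 20 blocks and downward in both in 2, those of 85 to 90 Mb and 95 to 100 Mb. Over the 30 blocks the female and male log2 ratios had a Spearman correlation of 0.62, whereas their median rank shifts had one of −0.03. Each is a description without a p, since the blocks share their lists. In the lists as deposited, deleted cells were in excess in 10% of the blocks in females and 23.3% in males. With peaks kept from a −log10 q of 10 upward, the share was 7.14% in each sex.

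**Figure D3:**
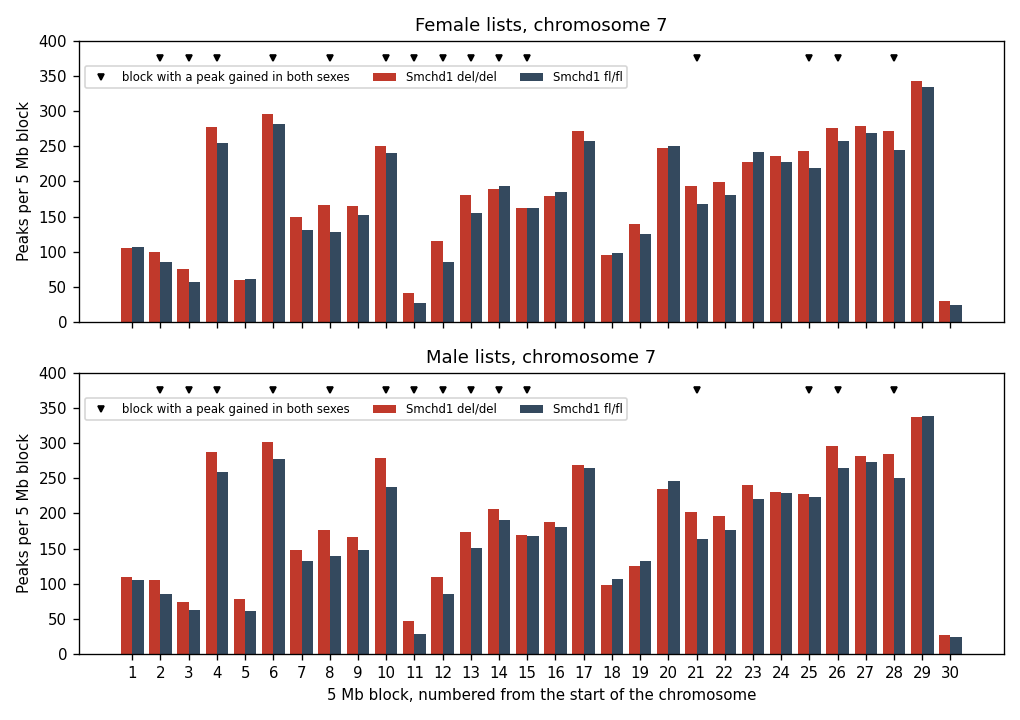
Peaks per 5 Mb block of chromosome 7 (vertical axis, count; horizontal axis, block number along the chromosome) in deleted and control females (top) and deleted and control males (bottom). Triangles mark the 15 blocks with a peak gained in both sexes, which stretch over most of the chromosome, and the deleted bar is the taller one in 22 blocks in females and 26 in males.

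The largest ratio in both sexes was in the block of 50 to 55 Mb, which had few peaks. It held 42 peaks in deleted females against 28 in control females (log2 0.58, −0.14 to 1.33) and 47 in deleted males against 29 in control males (log2 0.70, 0.00 to 1.42), so neither interval excluded 0. The next block, 55 to 60 Mb, includes the GABA-A receptor subunit genes Gabrg3 and Gabra5 and part of the Snrpn cluster. It held 116 peaks in deleted females against 86 in control females (log2 0.43, 0.02 to 0.85) and 109 in deleted males against 85 in control males (log2 0.36, −0.06 to 0.79). Its matched peaks moved up by a median of 4.49 points in females and down by 0.34 in males. The block of 35 to 40 Mb, which holds the Gm34052 peaks, had 167 peaks in deleted females against 128 in control females (log2 0.38, 0.04 to 0.73) and 176 in deleted males against 139 in control males (log2 0.34, 0.01 to 0.67). Intervals lay above 0 in these last 2 blocks in females and in the 35 to 40 Mb block in males, where 1.81% and 1.41% of all autosomal blocks had such an interval. An interval below 0 was seen in 0 blocks of chromosome 7, where 0.202% of all autosomal blocks had one in females and 2.62% in males.

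The block of 10 to 15 Mb, with Vmn1r71 and Zscan4c, had 76 peaks in deleted females against 57 in control females (log2 0.42, −0.10 to 0.94) and 74 in deleted males against 63 in control males (log2 0.23, −0.27 to 0.74). The block of 20 to 25 Mb was high in males alone, with 79 peaks in deleted males against 62 in control males, and 60 in deleted females against 61 in control females. The lowest ratios were small in size. In females they were −0.09 (110 to 115 Mb, 228 peaks in deleted against 242 in control), −0.05 (75 to 80 Mb), −0.04 (85 to 90 Mb) and −0.04 (65 to 70 Mb). In males they were −0.13 (85 to 90 Mb, 98 peaks in deleted against 107 in control), −0.07 (90 to 95 Mb), −0.07 (95 to 100 Mb) and −0.0043 (140 to 145 Mb).

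**Figure D4:**
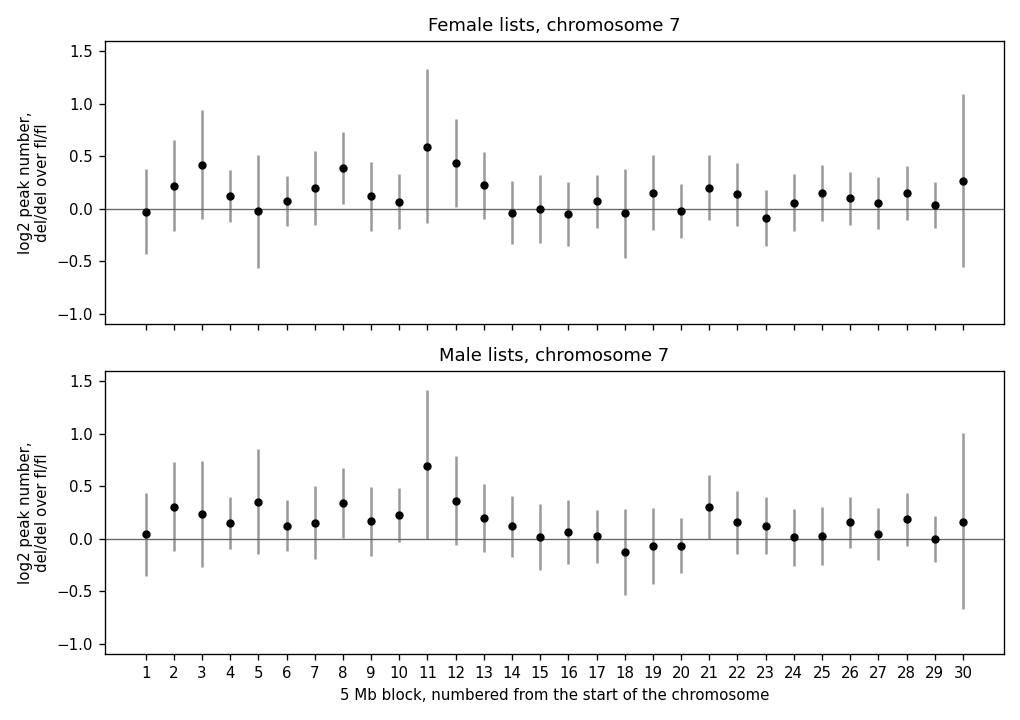
log2 ratio of peak number, deleted over control, for each 5 Mb block of chromosome 7 in females (top) and males (bottom), with 95% exact binomial intervals. Most points lie above 0, and the highest is block 11 (50 to 55 Mb) at 0.58 in females and 0.70 in males, with a wide interval because it has few peaks.

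In 7 blocks there were 2 or more peaks gained in both sexes, where 4.98% of all autosomal blocks had that many. The block of 10 to 15 Mb had 4. The blocks of 35 to 40, 120 to 125 and 135 to 140 Mb had 3 each, and those of 60 to 65, 65 to 70 and 100 to 105 Mb had 2 each. Gained peaks and the block ratio did not always move together, since the block of 65 to 70 Mb with 2 such peaks had 189 peaks in deleted females against 194 in control females.

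Blocks with fewer peaks in controls had the larger ratios. In the 10 blocks with fewest control peaks the log2 ratio was 0.18 (0.05 to 0.32) in females and 0.16 (0.02 to 0.30) in males. In the 10 middle blocks it was 0.11 (0.02 to 0.21) in females and 0.13 (0.04 to 0.22) in males. In the 10 densest blocks it was 0.06 (−0.02 to 0.13) in females and 0.09 (0.02 to 0.17) in males. The intervals of the 3 classes overlap. The ratio contains the control count, so part of such an order arises from how it is built. On the other autosomes the blocks in the lowest class gave 0.06 (0.03 to 0.10) in females and −0.04 (−0.08 to −0.01) in males. The middle and densest classes there gave −0.026 and −0.032 in females, and −0.005 and 0.010 in males. The order thus also fell on the other autosomes in females, and it rose there in males.

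Peaks were also counted over 28 lists of chromosome 7 genes, each gene with 5 kb on either side. The deleted list had the higher count for 21 gene lists in females and 21 in males, on a chromosome whose total was itself higher by log2 0.10 and 0.12. Among the imprinted domains, the Snrpn cluster (9 genes) had 65 peaks in deleted females against 47 in control females (log2 0.47, −0.10 to 1.04) and 63 in deleted males against 46 in control males (log2 0.45, −0.12 to 1.03). The intervals include 0. Within the cluster the surplus lay over Snhg14, with 43 peaks in deleted females against 23 in control females and 40 in deleted males against 24 in control males, and over the part it shares with Snrpn, where the counts were 15 in deleted females against 7 in control females and 16 in deleted males against 7 in control males. The short genes of the cluster hardly differed. Magel2, Peg12 and Mkrn3 had 2 or 3 peaks in every list, Ndn 1 or 2, and Ube3a, a ubiquitin ligase gene at the other end of Snhg14, 1 in deleted females against 2 in control females and 1 each in deleted and control males.

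The other imprinted domains were near balance. The Kcnq1 domain (13 genes) had 52 peaks in deleted females against 51 in control females, and 52 in deleted males against 51 in control males. The H19 and Igf2 domain (6 genes) had 7 in deleted females against 8 in control females and 6 in deleted males against 7 in control males. H19 itself, a growth-restraining noncoding RNA, had 3 peaks in deleted and 3 in control females, and 0 in deleted males against 3 in control males, and it was named after its values were seen. The Peg3 cluster (5 genes found) had 22 in deleted females against 23 in control females and 25 in deleted males against 22 in control males. Inpp5f, of the remaining imprinted genes, was lower in both sexes, with 7 peaks in deleted females against 8 in control females and 8 in deleted males against 10 in control males.

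The receptor families, silent in most tissues other than sensory epithelia, had few peaks for their size. Olfactory receptor genes (294) had 45 peaks in deleted females against 34 in control females (log2 0.40, −0.27 to 1.09) and 42 in deleted males against 33 in control males (log2 0.35, −0.34 to 1.05), and Olfr478, Olfr631 and Olfr504 were higher in both sexes while Olfr556 was lower in both. The 126 Vmn1r genes had 3 peaks in deleted females against 0 in control females and 3 in deleted males against 0 in control males, at Vmn1r71 (2 in each deleted list) and Vmn1r78 (1 in each). The 31 Mrgpr genes, receptors of itch and pain neurons, had 9 in deleted females against 5 in control females and 11 in deleted males against 7 in control males, with Mrgpra1 at 2 in each deleted list against 0 in each control list. The 9 Zscan4 genes had 2 in deleted females against 1 in control females and 3 in deleted males against 1 in control males. The 52 Vmn2r genes had 6 in deleted females against 5 in control females and 8 in deleted males against 5 in control males.

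Zinc finger genes (111), a large family of transcriptional repressors, were close to the chromosome's own ratio, with 214 peaks in deleted females against 207 in control females and 217 in deleted males against 205 in control males. Trim genes (17) had 35 in deleted females against 31 in control females and 36 in deleted males against 30 in control males. Trim30a and Trim6 were higher and Trim12c and Trim30b lower in both sexes. Ribosomal protein genes (14), which every cell uses, had 23 in deleted females against 24 in control females and 23 in each male list. The Nlrp genes (15) had 9 in deleted females against 5 in control females and 10 in deleted males against 6 in control males. Kallikreins (37) had 13 in each deleted list against 11 in each control list. The Cyp2 genes (17) had 6 in deleted females against 5 in control females and 8 in deleted males against 5 in control males. The Ceacam and Psg genes (28) had 17 in deleted females against 13 in control females and 14 in deleted males against 12 in control males. The Siglec genes (7) had 5 in deleted females against 2 in control females and 5 in deleted males against 3 in control males.

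The 35 genes listed as synapse and channel genes, most of them long, had 329 peaks in deleted females against 300 in control females (log2 0.13, −0.10 to 0.36). In males they had 352 in deleted against 309 in control cells (log2 0.19, −0.04 to 0.41). Both intervals include the ratio of the whole chromosome, 0.10 in females and 0.12 in males. The count was higher in both sexes in 14 of the genes (40%) and lower in both in 0. Of the 1441 protein-coding genes of the chromosome with a peak in any list, 10.5% were higher in both and 4.58% lower in both. The genes of the list were longer, at a median of 39.3 kb against 15.4 kb, and had more peaks to count, at a median of 4 against 2 in control females. The name of the list is loose, since it includes Nell1, Nav2 and Kirrel2, which do not encode channels. Its counts are therefore not read as a trait of synapse or channel genes. Nell1, a secreted protein of the thrombospondin type, had 9 peaks in deleted females against 2 in control females and 8 in deleted males against 3 in control males. Gabrg3 had 11 in deleted females against 7 in control females and 10 in deleted males against 7 in control males. In the same groups Kirrel2 had 6 against 2 and 5 against 2, and the large gene Nav2 52 against 51 and 63 against 53. Among 27 genes of transcription and growth control there were 169 peaks in deleted females against 163 in control females and 171 in deleted males against 172 in control males. Nr2f2, a nuclear receptor that patterns the forebrain, had 6 peaks in deleted females against 2 in control females and 5 in deleted males against 3 in control males. Chd2, a chromatin remodeler, had 8 in deleted against 9 in control cells of each sex.

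**Figure D5:**
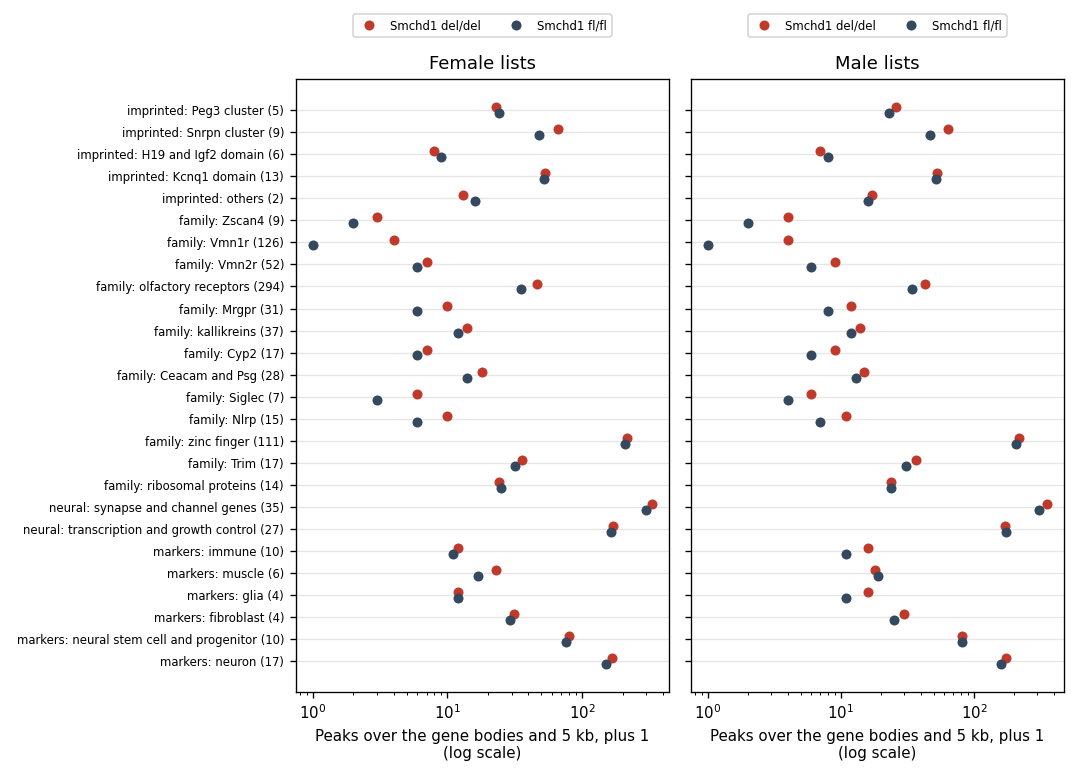
Peaks counted over each list of chromosome 7 genes and 5 kb on either side, plus 1, on a log axis, in deleted and control females (left) and deleted and control males (right), with the number of genes in parentheses. The gap between deleted and control is widest where counts are small, as for the Vmn1r genes at 3 against 0 in each sex, and it is visible at higher counts for the Snrpn cluster.

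Markers of other cell types on chromosome 7 were counted in the same way. Neural stem cell and progenitor genes (10) had 79 peaks in deleted females against 75 in control females and 81 in each male list. Neuron genes (17) had 165 in deleted females against 151 in control females and 173 in deleted males against 159 in control males, a list that shares genes with the synapse list. Glial genes (4) had 11 in each female list, and 15 in deleted males against 10 in control males, with Mag, a myelin gene, at 1 in deleted females against 0 in control females and 3 in deleted males against 0 in control males. Apoe, a lipid carrier that glia make, went the other way, at 1 in deleted females against 2 in control females and 2 in deleted males against 3 in control males. Immune genes (10) had 11 in deleted females against 10 in control females and 15 in deleted males against 10 in control males. Fibroblast genes (4) had 30 against 28 in females and 29 against 24 in males, deleted against control. Muscle genes (6) had 22 in deleted females against 16 in control females and 17 in deleted males against 18 in control males. The beta globin genes (9) and erythroid markers (4) had 0 peaks in every list. Changes in the mix of cells and changes within cells cannot be told apart in pooled bulk lists, and the part of these marker counts in the chromosome's totals was not tested.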

How the data were processed

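Chromatin accessibility was measured in 10 ATAC-seq libraries, pooled into 4 lists of peaks, 1 for each genotype and sex. The submitters' processing notes name the build mm10 and, with no roles, Bowtie2 2.2.5, Trim Galore 0.4.0, MACS2, Picard, SAMtools, edgeR and bcl2fastq. Peaks of each pooled alignment were called by MACS 2.1.0.20140616 without a control, per the file headers, with reads shifted by 75 bp and extended to 150 bp and q-values of at most 0.05. The authors deposited for each peak its pileup (a signal height, at most 300), a −log10 p, a −log10 q and the ratio of pileup to local background, called fold enrichment. The tag size was 63 bp in deleted females, 53 bp in control females, 59 bp in deleted males and 62 bp in control males, and depth also differed, so weak peaks are the least reliable.

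Each list was cut to 88159 peaks by −log10 q. Ties were broken by fold enrichment, pileup and length, then by a seeded draw. Overlap meant at least 1 shared base. Blocks were assigned by summit, and genes and start windows came from RefSeq tables of GRCm38.p6. Of 155 symbols asked for by name, 152 were found. With 1 list per group no p-value was computed. The rule for gained and lost peaks was tried on copies of the control female list, with noise on q and some strong peaks removed. These copies did not differ in depth, tag size or peak length as the real lists do. The trial therefore checked only that the rule runs as written. The chromosome, its members and the gene lists were chosen with earlier results of these data known, and the tissue markers after the lists were read. Named items are all peaks changed in both sexes (12 in full), the 8 strongest gained and lost per sex, the 4 highest and 4 lowest block ratios per sex with at least 50 peaks, blocks with 2 or more peaks gained in both sexes, and up to 4 genes per list that moved alike in both sexes. Peaks were assigned to genes in this order: an end at most 1 kb away, the gene around the summit, the closest end up to 50 kb away. Alternatives covered list length, ranking value, overlap, margin, merging at 500 bp, blocks and gene flanks. Software was Python 3.11.15 with scipy 1.17.1, Biopython 1.88, numpy 2.4.6, matplotlib 3.10.9 and pandas 2.3.3.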

Additional observations from a re-analysis of the deposited data

Results flagged for a closer look

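Several block ratios and gene lists of chromosome 7 ran one way in females and the other way in males. These differences were not tested, because each group has 1 list, and none of the intervals of these values excluded 0. The log2 ratio of peak number, deleted over control, was −0.024 in females and 0.35 in males in the block of 20 to 25 Mb, −0.038 and 0.12 in that of 65 to 70 Mb, and −0.048 and 0.063 in that of 75 to 80 Mb. It was 0.15 in females and −0.067 in males in the block of 90 to 95 Mb, −0.086 and 0.12 in that of 110 to 115 Mb, and 0.034 and −0.0043 in that of 140 to 145 Mb.

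Among gene lists it was −0.064 in females and 0.18 in males for the Peg3 cluster, and −0.32 and 0.093 for the 2 imprinted genes outside the named domains. It was 0.052 and −0.0084 for the genes of transcription and growth control, and 0.46 and −0.082 for the muscle markers.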

How the results depend on the processing

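Of 182 alternative values of the chromosome-wide results, 107 stayed within the interval of the reported value or within 1.5 times the reported count, 69 moved further and 6 turned round. Only a ratio or median shift whose reported interval excluded 0 could be counted as turned round. The 69 therefore include further changes of direction, among them the block shares and the female median shift given below. The 27 peaks gained in both sexes remained called under an overlap of 50%, and 22 of them when absence was required from the uncut control lists. All 6 values counted as turned round came from lists of unequal length. As deposited, and with −log10 q of at least 10, the log2 peak number in females was −0.19 and −0.32, that in males −0.080 and −0.19, and the median shift in males −1.64 and −3.23 points. Relative to other autosomes, the female log2 ratio was 0.053 (−0.024 to 0.13) at 44079 peaks per list (the halved length). With −log10 q of at least 10 it was 0.036 (−0.031 to 0.10). The male ratio was 0.073 (−0.0034 to 0.15) at the halved length. These 3 intervals include 0, though no relative ratio itself was below 0 in either sex.

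Shares of blocks with more peaks in deleted females were 10% as deposited and 7.14% at −log10 q of at least 10, and in males 23.3% and 7.14%. Gene lists with more peaks in deleted cells numbered 9 and 6 (females) and 13 and 3 (males) under these settings. The median shift in females was 0.29 points at the halved length, −4.62 as deposited, −6.43 at −log10 q of at least 10, 0.35 ranked by fold enrichment or by pileup, and 0.27 without tied peaks. In males it was 0.75 ranked by fold enrichment, 1.69 by pileup and 1.56 without tied peaks.

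Gained peaks numbered 37 in females and 25 in males at the halved length, 69 and 39 as deposited, 26 and 12 at −log10 q of at least 10, 952 and 1116 without a margin, and 11 and 6 among the strongest candidates alone. Lost peaks numbered 0 and 1 at the halved length, 127 and 46 as deposited, 18 and 7 at −log10 q of at least 10, 47 and 56 by pileup, 690 and 763 without a margin, 0 and 0 among the strongest candidates, and 5 in females without tied peaks. Peaks gained in both sexes numbered 16 at the halved length, 9 at −log10 q of at least 10, 285 without a margin and 5 among the strongest candidates, and those lost in both 0, 0, 162 and 0, with 5 as deposited and 7 by pileup. Of the 27, the number still called was 5 at the halved length, 5 at −log10 q of at least 10, 17 by pileup and 5 among the strongest candidates. No other autosome reached chromosome 7 in such peaks, except 1 at −log10 q of at least 10 and 1 among the strongest candidates.

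Between control females and males, 0 peaks differed at the halved length, 79 as deposited, 9 at −log10 q of at least 10, 5 by fold enrichment, 44 by pileup, 1175 without a margin, 0 among the strongest candidates and 0 against uncut lists. Between deleted females and males the numbers were 3, 62, 8, 36, 106, 1828 and 0 for the same settings up to the strongest candidates. The log2 ratio of the block of 35 to 40 Mb in females was 0 as deposited and −0.25 at −log10 q of at least 10, where it was −0.21 in males, and that of the block of 55 to 60 Mb in females was −0.10 as deposited. The cause was not tested. Leaving out the blocks of 5 to 15 Mb left 55 and 40 gained peaks in females and males, 22 in both. The setting without tied peaks, and the one without the 7 blocks of repeated gains (log2 0.07 in females and 0.10 in males), were chosen after seeing the data. No paired analysis was possible because each group has 1 pooled list, and leaving out single libraries could not be run for the same reason. The lower depth of the male lists limits what can be said of weak peaks.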
